A study of Arabis alpina with 9 samples.

Results

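The fifth and sixth leaves of 5-week-old Arabis alpina plants were compared with shoot apices dissected at 3 weeks, across all genes that the count table measured. The species is a perennial of the cabbage family, and the series concerns how flowering is regulated by AaTFL1, named after the Arabidopsis floral repressor TFL1. Every library carries the mutation of line eop089, in the Pajares background, and all plants were kept under long days. Of that mutation the labels state the line name but no allele, and control libraries were not analysed here. The comparison takes in 6 of the 9 mutant libraries, 3 of 5-week leaf and 3 of 3-week apex, and 3 libraries of 5-week apex are set beside them as a further level. Organ and age differ together between leaf and 3-week apex and cannot be told apart by this comparison. The labels do not say whether the libraries of a group came from separate plants, so p-values measure the spread between these libraries, which may be technical. No source used here gives the hour of harvest.

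A shoot apex holds the meristem, the youngest leaf primordia and the epidermal precursors that cover them, and its cells divide. A leaf past that stage has stopped dividing over most of its area, builds photosynthetic mesophyll, makes sucrose and starch, and loads sugar into the phloem. In Arabidopsis the leaf is also where FT, the mobile signal for flowering, is made, whereas TFL1 acts in the apex.

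Each of the 6 libraries held between 12777711 and 13382460 counts in genes. The 10 genes with the most counts took 12.3% to 12.7% of a leaf library and 3.10% to 3.16% of a 3-week apex library. CA1 alone held 0.588% to 0.622% of the leaf counts, and LHCB2.1 held 0.526% to 0.545%. Levels are given as CPM, the usual count relative to library size, with that size scaled by TMM, which sets the bulk of genes level between libraries. The TMM factors were 0.694 to 0.704 for leaf and 1.15 to 1.16 for the 3-week apex. How far the most abundant genes account for that gap was not tested. CPM are not divided by gene length, so they compare libraries and not genes. Reads outside annotated genes made up 7.94% to 8.30% of the leaf reads and 10.7% to 11.0% of the 3-week apex reads. Leaf separated from both apex ages along a component with 88.8% of the variance, and the apex ages separated along the next, with 6.11%. The apex ages did not overlap on the first component either. There the 5-week apex lay at -95.5 to -90.8, the 3-week apex at -73.9 to -65.1 and leaf at 153 to 167.

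Of 20633 genes tested, 15451 (74.9%) differed between leaf and 3-week apex at an adjusted p under 0.05. Leaf was higher for 7548 of them (36.6%) and lower for 7903 (38.3%). With a difference of at least 2-fold as a second condition, 8086 genes (39.2%) were called, 4127 (20.0%) higher and 3959 (19.2%) lower in leaf. The leaf and apex libraries did not overlap for 16211 genes (78.6%). In the same fit leaf differed from 5-week apex for 79.1% of genes, or 44.1% at 2-fold, and the apex ages differed for 40.1%, or 7.29% at 2-fold. Scaling by total counts alone moved the median over all genes, on the log2 scale, from -0.03 to -0.76, and the higher share of the 2-fold calls from 51.0% to 22.8%. Genes called 2-fold below are those of the TMM scaling, and the text says where total counts change a direction.

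The largest differences were wide. Calls of at least 64-fold numbered 170 higher and 312 lower in leaf, where fitted folds of genes with no count in a group depend on the fit. In 36 entries the 3-week apex had no count while every leaf library had at least 10, and in 186 entries the reverse held. Arabidopsis names were used only for genes in the authors' deposited lists of mutant against control differences, which were made in part from these libraries. Of 670 named genes 605 passed the filter on low counts. Among those 605, 270 were higher and 145 lower in leaf at 2-fold, 60 and 45 differed by less, 85 did not pass, and the median log2 fold change was 0.71. Every gene group below is drawn from these 605, so its counts have to be read against that split as well as against all genes. Some lists lay near it, such as cell wall (10 higher and 4 lower of 20) and abscisic acid (6 and 2 of 12). Counts near that split are no result about the list. The split of the 605 under total counts was not computed, so list counts under total counts lack that comparison.

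**Figure D1:**
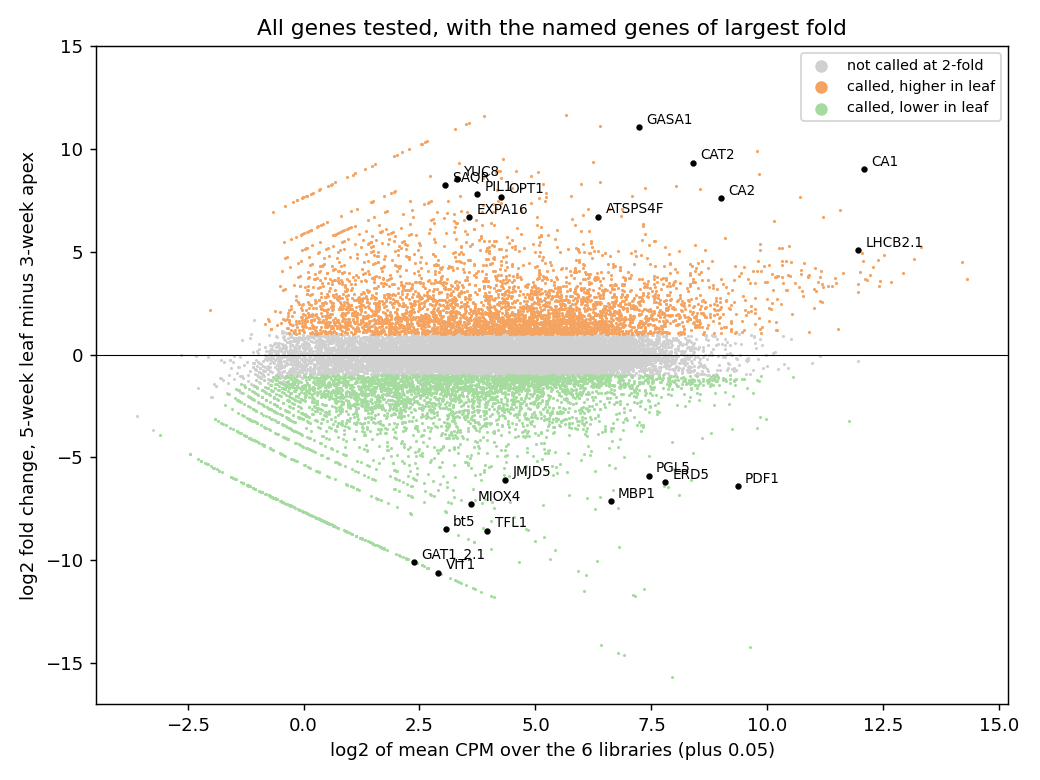
Log2 fold change of 5-week leaf over 3-week apex (vertical axis) against the log2 mean CPM of the 6 libraries (horizontal axis), 1 point per gene of 20633, with genes called at 2-fold in colour and the named genes of largest fold labelled. CA1 and LHCB2.1 are the rightmost labelled genes, both higher in leaf, PDF1 is the rightmost labelled gene among the lower ones, and the slanted lines of points at low CPM are genes with few or no counts in 1 group.

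Carbonic anhydrase, catalase and light-harvesting genes were among the named genes furthest towards leaf. Of 88 genes on the photosynthesis list only 5 were named, and 4 of those 5 were higher in leaf at 2-fold. CA1 and CA2 encode carbonic anhydrases, which interconvert CO2 and bicarbonate in the leaf. CA1 (gene Aa_G593160) read 8950.3, 8617 and 8475 CPM in the 3 leaf libraries and 32.4, 4.9 and 13.6 CPM in the 3-week apex libraries. All leaf libraries lay above all apex libraries, and apex replicate 1 was the highest of its group. The log2 fold change was 8.99 (SE 0.45, adjusted p = 1.41e-11), and it ran from 8.55 to 9.87 as single libraries were left out, with the upper end without that apex replicate. CA2 was at 1007, 978 and 1066 CPM in leaf and 7.89, 2.38 and 5.32 CPM at the 3-week apex, a log2 fold change of 7.60 (SE 0.22, adjusted p = 1.45e-14). The 5-week apex was lower still, at 0.322 to 0.991 CPM for CA1 and 0.322 to 0.859 CPM for CA2.

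CAT2, the catalase that removes hydrogen peroxide made by photorespiration, read 710.4, 685 and 627 CPM in leaf. At the 3-week apex it read 2.74, 0.136 and 0.2 CPM, and no read fell on it in any 5-week apex library. Its log2 fold change between leaf and 3-week apex was 9.32 (SE 0.33, adjusted p = 1.88e-12). LHCB2.1, a chlorophyll-binding protein of the light-harvesting antenna of photosystem II, read 7747, 7475 and 7863 CPM in leaf and 268, 236 and 189 CPM at the 3-week apex. Its log2 fold change was 5.06 (SE 0.31, adjusted p = 1.72e-10), and unlike the carbonic anhydrases its 3-week and 5-week apex libraries overlapped, at 136 to 423 CPM for 5 weeks. PORA, which reduces protochlorophyllide in the light, differed by less than 2-fold, with a log2 fold change of 0.50 (SE 0.12, adjusted p = 0.00164) that turned to -0.23 under total counts.

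Few of the fixed cell type markers were among the named genes. LHCB2.1, CA1 and CAT2, the named ones of 9 mesophyll markers, summed to 203 to 303 CPM at the 3-week apex and to 16777 to 17408 CPM in leaf. CYCB1;3, the named one of 10 markers of dividing cells, summed to 52.5 to 57.3 CPM at the apex and 6.74 to 9.93 CPM in leaf. TEL1, the named one of 13 meristem markers, had 29 counts over the apex libraries and 1 in leaf, a ratio of 17.7 (95% counting interval 2.93 to 721). The epidermis marker PDF1, whose values are given below, was far lower in leaf, although a leaf has an epidermis. The guard cell marker KAT1 overlapped between the groups. The phloem marker SUC2 was present in both organs but higher in leaf, at 302 to 335 CPM against 23.6 to 29.4 CPM at the 3-week apex. The xylem markers IRX12 and LAC17 summed to 76.8 to 139 CPM in leaf and 31.05 to 33.2 CPM at the 3-week apex. In whole organs, fewer cells of a type and less RNA per cell cannot be told apart. None of the 4 trichome or 3 senescence markers was among the named genes, and the floral marker AG had no count at the 3-week apex and 0.446 to 1.1 CPM in leaf.

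The few named genes of dividing and young tissue were mostly lower in leaf. Of 74 genes on the cell division list only 3 were named, and all 3 were lower at 2-fold. CYCB1;3, a mitotic cyclin, was at 6.74, 7.01 and 9.93 CPM in leaf and 52.5, 53.9 and 57.3 CPM at the 3-week apex, a log2 fold change of -2.79 (SE 0.14, adjusted p = 2.05e-11). CYCD1;1, a cyclin of the D type, was at 8.06, 7.75 and 15.1 CPM against 43.8, 46.1 and 43.4 CPM, with -2.11 (SE 0.16, adjusted p = 2.26e-09). Leaf replicate 3 was the highest leaf library for both cyclins. GRF4, a growth-regulating factor of leaf primordia, was at 4.86, 4.25 and 4.8 CPM against 34, 32.1 and 27.7 CPM, and its log2 fold change was -2.75 (SE 0.12, adjusted p = 2.84e-12).

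The 3 named zinc finger homeodomain genes, a group made after their values had been seen, were also lower. HB33 was at 13, 15.5 and 18.4 CPM in leaf and 192, 188 and 180.4 CPM at the 3-week apex, with a log2 fold change of -3.58 (SE 0.10, adjusted p = 1.01e-14). HB28 and HB31 had log2 fold changes of -3.67 (SE 0.19) and -2.88 (SE 0.12), and for all of them the highest leaf library lay below the lowest apex library. HEC1, a basic helix-loop-helix factor active in the meristem, was at 0.552, 0.743 and 0.335 CPM against 2.61, 2.04 and 3.26 CPM, with -2.25 (SE 0.52, adjusted p = 9.28e-04). HEC1 at the 5-week apex read 1.1, 0.0667 and 0.595 CPM, so there leaf and apex overlapped. ARR15, a response regulator induced by cytokinin, did not pass, at 7.62, 8.18 and 9.04 CPM in leaf against 11.3, 10.1 and 7.78 CPM, with -0.23 (SE 0.20, adjusted p = 0.304). Under total counts its log2 fold change was -0.96.

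Most named genes of the epidermis and cuticle followed the apex. Of 11 tested, 7 were lower and 3 higher in leaf at 2-fold, with a median log2 fold change of -1.09. Under total counts 8 were lower and 2 higher. PDF1, a marker of the outermost cell layer of the meristem, had the highest mean CPM of all named genes at the 3-week apex. It read 1174, 1325 and 1409 CPM there and 4.64, 2.87 and 39.2 CPM in leaf, a log2 fold change of -6.40 (SE 0.52, adjusted p = 7.78e-09). Leaf replicate 3 stood apart from the other leaf libraries but remained far below the apex, and without it the log2 fold change was -8.44. KCS19, an enzyme that elongates fatty acids, showed the same leaf order, at 1.88, 0.531 and 5.69 CPM against 70.5, 72.9 and 81.3 CPM, with -4.81 (SE 0.28, adjusted p = 1.03e-10).

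HTH, which is needed for an intact cuticle and for keeping organs apart, was at 37.2, 37.1 and 59.3 CPM in leaf against 288, 298 and 329 CPM, with a log2 fold change of -2.78 (SE 0.16, adjusted p = 6.29e-11). GPAT6, an acyltransferase of cutin synthesis, had a log2 fold change of -2.62 (SE 0.34). TMM, a receptor-like protein that spaces stomata, was at 2.76, 1.91 and 6.25 CPM against 17.5, 15.8 and 18.8 CPM, with -2.26 (SE 0.26, adjusted p = 6.97e-07). Of 4 stomata and guard cell genes, 2 were higher and 1, TMM, lower at 2-fold, or 0 and 1 under total counts. The higher ones were SDD1, a protease of stomatal patterning, with 1.36 (SE 0.36, adjusted p = 0.00269), and SLAH3, an anion channel, at 1.66, 3.61 and 2.9 CPM in leaf against 1.17, 1.16 and 1.46 CPM (adjusted p = 0.00444). SDD1 no longer reached 2-fold without leaf replicate 3, nor SLAH3 without leaf replicate 2. The guard cell channel gene KAT1 did not pass, at 3.76, 3.29 and 2.57 CPM in leaf and 2.54, 3.68 and 1.93 CPM at the apex.

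The lipid transfer protein genes went the other way. LTP5 rose to 118, 112 and 126 CPM in leaf from 4.04, 2.66 and 4.39 CPM, a log2 fold change of 4.99 (SE 0.13, adjusted p = 4.02e-15). LTP4 was at 109.7, 105 and 23.1 CPM in leaf against 9.59, 10.2 and 14.8 CPM, with 2.78 (SE 0.40, adjusted p = 9.28e-06). Here leaf replicate 3 was the lowest leaf library, by over 4-fold, although it still lay above every apex library.

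The libraries of a group were not alike in these respects. Among the 3959 genes lower in leaf at 2-fold, leaf replicate 3 was the highest leaf library for 2056, and among the 4127 genes higher in leaf it was the lowest for 2177. Among the genes higher in leaf by at least 16-fold, apex replicate 1 was the highest 3-week apex library for 252 of 550. Whether the samples held different parts or stages of the organs was not tested. Leaving out each of the 6 libraries in turn gave 4109 to 4255 genes higher and 3908 to 4134 lower at 2-fold.

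**Figure D2:**
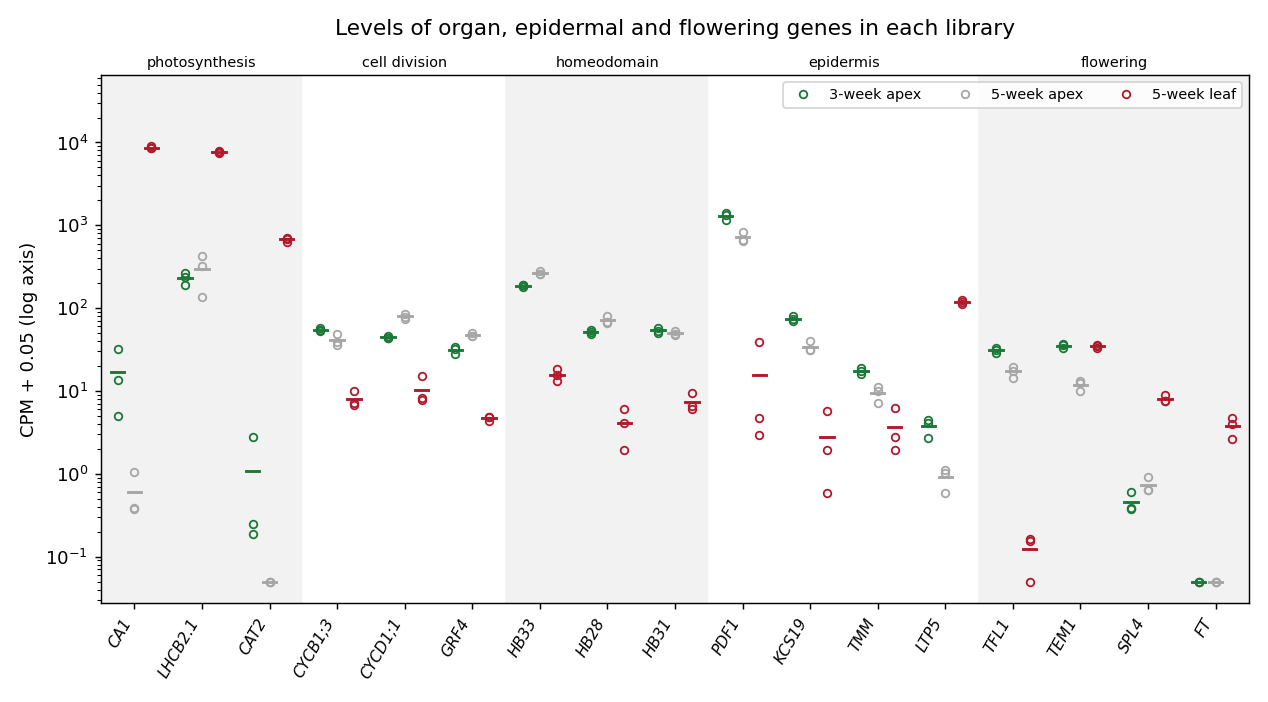
CPM plus 0.05 on a log axis for 17 genes in each library of 3-week apex, 5-week apex and 5-week leaf (open circles, 3 per group, with the mean as a bar). Leaf lies above both apex ages for CA1, CAT2, LTP5, SPL4 and FT, below both for the cell division, homeodomain and TFL1 panels, and level with the 3-week apex for TEM1.

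Of 4 flowering genes tested, 2 were higher and 1 lower in leaf at 2-fold. TFL1 (gene Aa_G789610) read 31.4, 32.8 and 29.1 CPM at the 3-week apex, and only 2 reads over the 3 leaf libraries, against 1399 over the apex libraries. The apex level was higher by a ratio of 426 (95% counting interval 118 to 3520.0), and the adjusted p was 1.74e-13. At the 5-week apex TFL1 read 14.4, 19.6 and 17.5 CPM. FT had no count in any 3-week or 5-week apex library and 3.98, 4.67 and 2.57 CPM in leaf, from 103 counts. Its leaf level was at least 56.1-fold higher than 3 counts over the 3-week apex group allow (adjusted p = 4.36e-07).

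SPL4, a factor that promotes the floral transition, was at 7.51, 8.92 and 7.59 CPM in leaf and 0.326, 0.545 and 0.333 CPM at the 3-week apex, with a log2 fold change of 4.29 (SE 0.28, adjusted p = 5.63e-10). TEM1, a repressor of FT, was at 35.8, 34.4 and 33.4 CPM in leaf and 36.4, 35.6 and 32.9 CPM at the 3-week apex. The groups overlapped, and the log2 fold change was -0.02 (SE 0.09, adjusted p = 0.869), a difference that did not pass. The 5-week apex was lower than both, at 13.2, 9.94 and 12.5 CPM, and leaf against 5-week apex gave 1.54 (SE 0.10, adjusted p = 5.25e-10). Under total counts TEM1 was lower in leaf than at the 3-week apex, with a log2 fold change of -0.74.

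The named clock genes mostly split by their phase, with the morning gene RVE2 as an exception. In Arabidopsis the morning genes CCA1 and LHY repress the evening genes, and the evening complex of ELF3, ELF4 and LUX represses PRR9. All 6 evening genes named were lower in leaf at 2-fold, with a median log2 fold change of -2.69, and 5 of 6 morning genes were higher. These directions held under total counts, where LHY no longer passed. Of these clock genes LHY and PRR5 no longer reached 2-fold without apex replicate 2.

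FKF1, a blue light receptor of the photoperiod pathway, was at 0.884, 0.531 and 0.893 CPM in leaf and 15.8, 18.3 and 20.5 CPM at the 3-week apex, with -4.55 (SE 0.37, adjusted p = 9.00e-09). ELF4, a member of the evening complex, was at 1.44, 0.531 and 0.223 CPM against 12.3, 9.46 and 11.4 CPM, with -3.91 (SE 0.38, adjusted p = 7.41e-08). PCL1, another name of LUX, was at 4.64, 5.95 and 5.69 CPM against 37.7, 39.1 and 38.4 CPM. Leaf was below every apex library for all of these. TOC1, a pseudo-response regulator of the evening loop, was at 27.9, 26 and 24.4 CPM against 156, 162 and 147 CPM, with -2.57 (SE 0.11, adjusted p = 1.60e-12). BOA, a close relative of LUX, had a log2 fold change of -2.23 (SE 0.21), and PRR5 the smallest, at -1.11 (SE 0.12).

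Among morning genes, CCA1 was at 22.1, 22.1 and 18.6 CPM in leaf and 1.11, 0.477 and 1.26 CPM at the 3-week apex, with 4.44 (SE 0.26, adjusted p = 1.28e-10). LHY was at 30.6, 28.5 and 31.6 CPM against 12.7, 5.45 and 22.1 CPM, with 1.17 (SE 0.31, adjusted p = 0.00283). The apex libraries of LHY spread by over 4-fold. PRR9 was at 13.9, 13.4 and 12.7 CPM against 1.5, 0.817 and 0.333 CPM, with 3.90 (SE 0.44, adjusted p = 5.41e-07). LNK4 and LNK3, relatives of the light-regulated activators of evening genes, had log2 fold changes of 4.94 (SE 0.33) and 5.23 (SE 0.34). LNK4 read 251, 262 and 257 CPM in leaf and 10.2, 7.63 and 7.18 CPM at the 3-week apex, while the 5-week apex lay between, at 10.4, 44.8 and 31.1 CPM.

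RVE2 is a relative of CCA1, and its direction was opposite to that of the other morning genes. It was at 1.33, 0.956 and 0.558 CPM in leaf against 14.4, 13.3 and 16 CPM, with -3.93 (SE 0.22, adjusted p = 8.04e-11). Of 5 genes of clock output and cold response, 4 were lower in leaf at 2-fold. JMJD5, a clock-regulated gene with a jumonji domain, was at 0.663, 0.425 and 0.67 CPM against 41.9, 30.0 and 48.5 CPM, with -6.08 (SE 0.70, adjusted p = 6.39e-07). COR28 and COR27, cold-regulated genes that feed back on the clock, had log2 fold changes of -3.62 (SE 0.48) and -3.20 (SE 0.65). RBGA3, an RNA-binding protein gene that cycles in Arabidopsis, was at 233, 232 and 252 CPM against 825, 905 and 798 CPM, with -1.82 (SE 0.12, adjusted p = 8.55e-10). Clock gene levels move through the day, and a difference of harvest hour between leaf and apex was not tested.

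**Figure D3:**
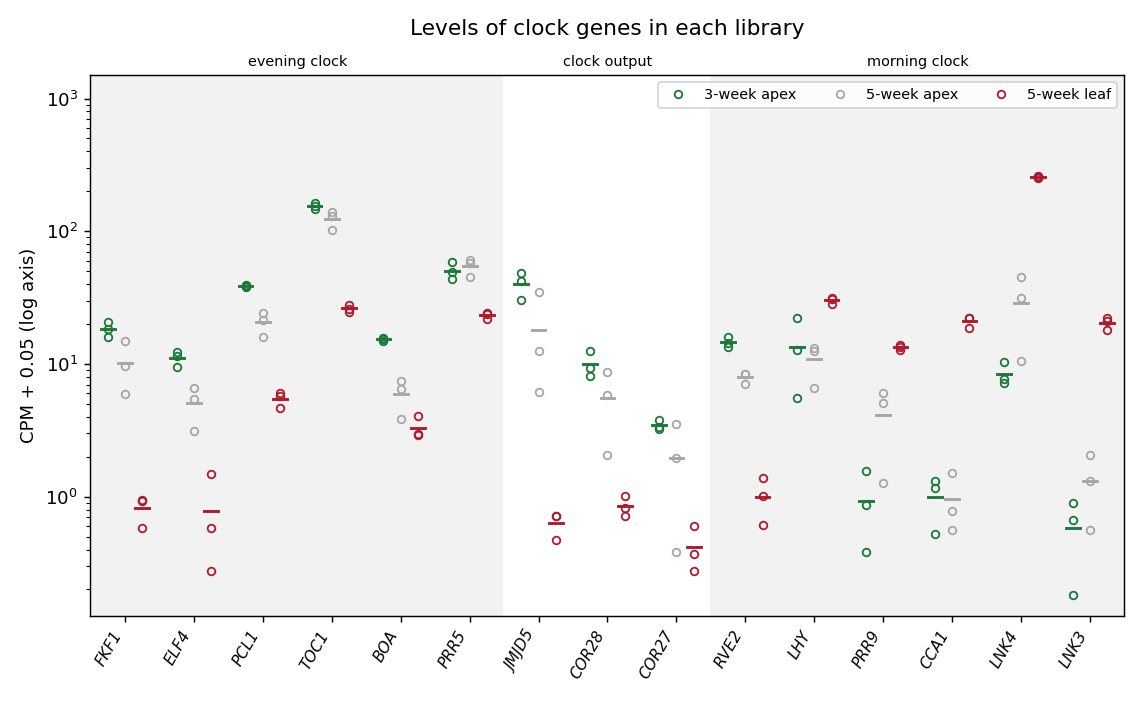
CPM plus 0.05 on a log axis for 15 clock genes in each library (open circles, 3 per group, with the mean as a bar). Leaf lies below the 3-week apex for the evening and output genes and for RVE2, and above it for LHY, PRR9, CCA1, LNK4 and LNK3.

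Genes known to be induced by darkness or low sugar, and genes of amino acid breakdown, were mostly lower in leaf than at the 3-week apex. Of 15 tested, 8 were lower and 3 higher at 2-fold, with a median log2 fold change of -1.32. Under total counts 11 were lower and 0 higher. ERD5, a proline dehydrogenase, was at 5.63, 4.67 and 7.37 CPM in leaf and 453, 480.3 and 379.9 CPM at the 3-week apex, with -6.22 (SE 0.18, adjusted p = 1.69e-14). BCAT-2, an aminotransferase of the branched-chain amino acids, was at 0.442, 0.425 and 0.781 CPM against 22.6, 29.3 and 16.5 CPM, with -5.36 (SE 0.33, adjusted p = 1.93e-10). MCCA, a subunit of methylcrotonyl-CoA carboxylase in leucine breakdown, had a log2 fold change of -2.11 (SE 0.10). For these genes leaf was the lowest of the 3 groups and the 3-week apex the highest.

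A second set was high at the 3-week apex, lower in leaf and lowest at the 5-week apex. ASN1, an asparagine synthetase induced in the dark, was at 242, 280.4 and 232 CPM at the 3-week apex, 44, 44.3 and 144 CPM in leaf and 28.9, 18.1 and 25.7 CPM at the 5-week apex. Leaf replicate 3 was again apart, and the log2 fold changes of leaf were -1.70 (SE 0.31, adjusted p = 9.35e-05) against 3-week and 1.67 (SE 0.34, adjusted p = 2.62e-04) against 5-week apex. SEN1, a gene induced by darkness and in ageing leaves, was at 49.6, 64.6 and 46.8 CPM, 15.6, 15.2 and 21.5 CPM and 4.13, 5.81 and 10.1 CPM in the same order, with -1.62 (SE 0.20, adjusted p = 1.34e-06) and 1.38 (SE 0.24, adjusted p = 6.61e-05). DIN10, of the raffinose synthase family, was at 384, 389.6 and 310.3 CPM, 214, 203 and 210.4 CPM and 58.7, 36 and 61.5 CPM, with -0.79 (SE 0.14, adjusted p = 6.54e-05) and 2.00 (SE 0.15, adjusted p = 1.80e-09). So the sign of the leaf difference for ASN1, SEN1 and DIN10 depended on which apex age leaf was set against. These comparisons share the leaf libraries.

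KMD1, an F-box protein that targets cytokinin response regulators, also had this order, with -0.69 (SE 0.17, adjusted p = 0.00135) against the 3-week apex and 1.06 (SE 0.18, adjusted p = 4.34e-05) against the 5-week apex. Its relative KMD4 was highest in leaf, at 238, 230.2 and 226 CPM against 98, 104 and 96.8 CPM at the 3-week apex, with 1.21 (SE 0.12, adjusted p = 6.29e-08). NYC1, which starts the breakdown of chlorophyll b, was higher in leaf as well, with 1.26 (SE 0.06, adjusted p = 7.34e-12). Under total counts neither reached 2-fold, at 0.49 for KMD4 and 0.54 for NYC1. The dormancy-associated genes DRM2 and DYL1 were lower in leaf, with log2 fold changes of -3.15 (SE 0.27) and -1.32 (SE 0.10). BRC1, which holds axillary buds dormant, did not pass, at 1.44, 3.82 and 1 CPM in leaf and 2.74, 5.11 and 2.33 CPM at the apex.

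Trehalose phosphate synthases of class II did not pass between leaf and 3-week apex. TPS9 was at 171, 196 and 188 CPM in leaf and 205, 206 and 204 CPM at the 3-week apex, with -0.15 (SE 0.09, adjusted p = 0.137), and TPS11 at 65.1, 72.6 and 71.1 CPM against 66.3, 72.5 and 73.8 CPM, with -0.03 (SE 0.07, adjusted p = 0.766). Both were lower at the 5-week apex, at 62.1 to 82.9 CPM for TPS9 and 25.6 to 29.9 CPM for TPS11. A p that misses the threshold does not show equal levels, and under total counts both passed, with log2 fold changes of -0.87 and -0.75.

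Several named genes of metabolism and transport had almost no leaf counts. VIT1, a vacuolar iron transporter, read 13.1, 15.3 and 16.2 CPM at the 3-week apex and had no count in leaf, so that its apex level was at least 136-fold higher than 3 counts over the leaf group allow (adjusted p = 1.87e-10). GAT1_2.1, of the glutamine amidotransferase class, read 8.81, 14.2 and 8.05 CPM and had no leaf count either, a level at least 94.7-fold higher at the apex (adjusted p = 1.23e-07). bt5, of the BTB and TAZ domain family, read 18.2, 18.7 and 12.9 CPM at the apex against 1 count in leaf, a ratio of 455 (95% counting interval 81.5 to 18011). In each of these 3 genes the lowest apex library lay above the highest leaf library.

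MIOX2 and MIOX4 encode myo-inositol oxygenases, which open the ring of inositol on the way to cell wall sugars. MIOX2 was at 81.5, 94.4 and 69.2 CPM at the 3-week apex and 0.994, 1.49 and 1.67 CPM in leaf, with -5.87 (SE 0.18, adjusted p = 2.31e-14). MIOX4 was at 23.4, 24.6 and 24.1 CPM and 0.11, 0.212 and 0.112 CPM, with -7.27 (SE 0.35, adjusted p = 7.53e-12). The 5-week apex lay between for both, at 14.4 to 16.6 CPM and 1.47 to 3.48 CPM. SIP1, of the raffinose synthase family, was at 9.33, 12.4 and 10.1 CPM and 0, 0.425 and 0.112 CPM, with -5.79 (SE 0.44, adjusted p = 3.62e-09). PGL5, of the 6-phosphogluconolactonase family, was at 313, 348 and 362 CPM at the apex and 4.64, 7.54 and 4.91 CPM in leaf, with -5.90 (SE 0.32, adjusted p = 3.68e-11).

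For MGL, CP2 and MBP1 both apex ages lay far above leaf. MGL, which splits methionine, was at 311, 377 and 331 CPM at the 3-week apex, 282, 318 and 311 CPM at 5 weeks and 11.9, 12.4 and 9.04 CPM in leaf, with -4.93 (SE 0.12, adjusted p = 2.37e-15) for leaf against 3-week apex. MBP1, a myrosinase-binding protein gene, was at 182, 201 and 205 CPM, 174, 126 and 150.0 CPM and 1.33, 1.38 and 1.45 CPM, with -7.13 (SE 0.17, adjusted p = 2.22e-15). CP2, of the cysteine protease family, was at 828, 851 and 783 CPM, 703, 902 and 887 CPM and 53.2, 52.6 and 66.6 CPM, with -3.84 (SE 0.12, adjusted p = 3.60e-14). The 5-week against the 3-week apex gave log2 fold changes of -0.16 (SE 0.09, adjusted p = 0.148) for MGL, -0.39 (SE 0.09, adjusted p = 0.00323) for MBP1 and 0.02 (SE 0.10, adjusted p = 0.913) for CP2. GLYI4, of the glyoxalase I family, was at 72.3, 89.5 and 57 CPM at the 3-week apex and 1.1, 0.637 and 2.79 CPM in leaf, with -5.60 (SE 0.26, adjusted p = 4.67e-12).

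Starch and sugar genes went in both directions. Of 13 tested, 6 were higher and 3 lower in leaf at 2-fold, or 6 and 5 under total counts, and the median log2 fold change was -0.03. ATSPS4F, a sucrose phosphate synthase, was at 175, 169 and 141 CPM in leaf and 1.89, 1.29 and 1.46 CPM at the 3-week apex, with 6.69 (SE 0.13, adjusted p = 8.82e-16). SUC2, the sucrose carrier that loads the phloem, was at 317, 335 and 302 CPM against 29.4, 23.6 and 27.7 CPM, with 3.56 (SE 0.14, adjusted p = 4.61e-13). Neither gene's groups came near each other. SUC1, SWEET1 and the starch synthase gene GBSS1 had log2 fold changes of 3.41 (SE 0.13), 3.33 (SE 0.19) and 2.62 (SE 0.25). GPT2, a carrier of glucose phosphate across the plastid envelope, had one of 2.48 (SE 0.16). BMY3, of the beta-amylase family, was lower in leaf, at 51.3, 45.2 and 43.4 CPM against 236, 246 and 212 CPM, with -2.31 (SE 0.11, adjusted p = 4.44e-12). The other lower gene beside SIP1 and BMY3 was GolS1, a galactinol synthase, at 0.783, 0.953 and 1.53 CPM at the 3-week apex with no leaf count, at least 9.95-fold higher at the apex (adjusted p = 0.00308).

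**Figure D4:**
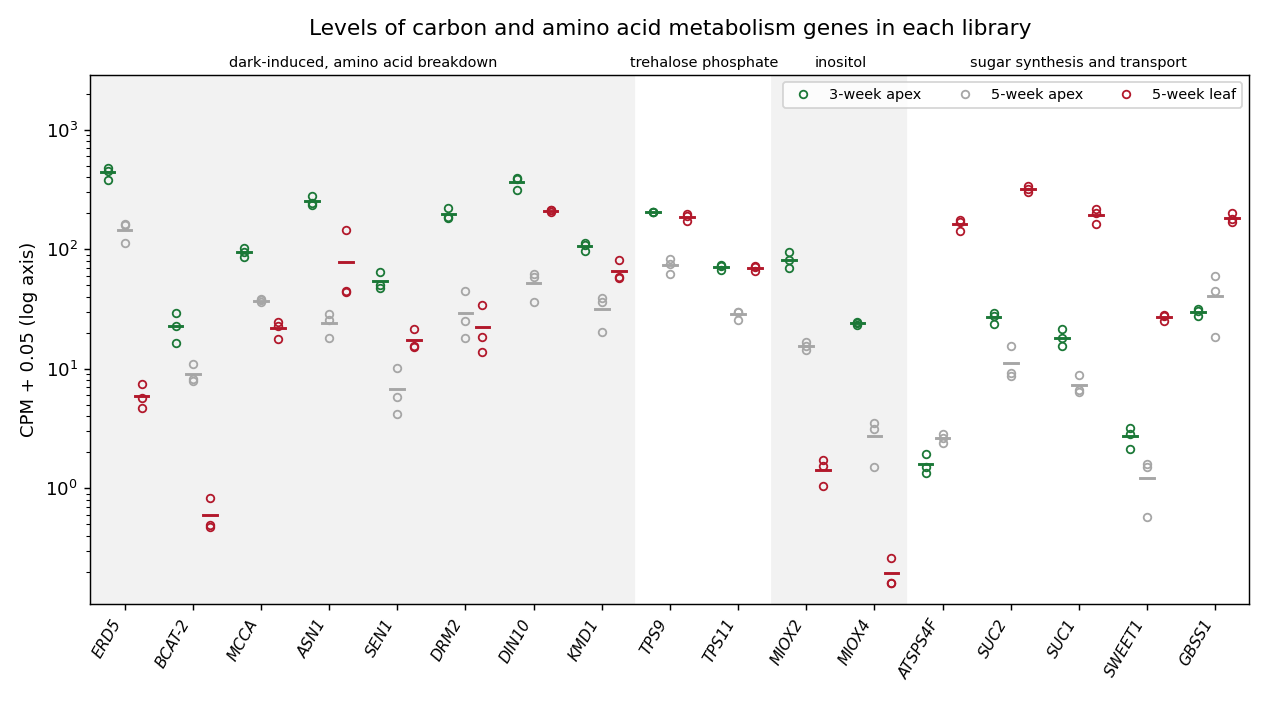
CPM plus 0.05 on a log axis for 17 genes of carbon and amino acid metabolism in each library (open circles, 3 per group, with the mean as a bar). ERD5, BCAT-2, MCCA, MIOX2 and MIOX4 are lowest in leaf, ASN1, SEN1, DIN10, KMD1, TPS9 and TPS11 are lowest at the 5-week apex, and the sugar synthesis and transport genes are highest in leaf.

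Hormone genes went in both directions. Of 15 auxin genes 8 were higher and 2 lower in leaf at 2-fold, and 5 and 4 under total counts. YUC8, an enzyme of auxin synthesis, read 14.6, 16.7 and 27.9 CPM in leaf and had 2 counts over the 3-week apex libraries, a ratio of 443 (95% counting interval 122 to 3665). The Aux/IAA repressor genes IAA29, IAA19 and IAA1 had log2 fold changes of 4.23 (SE 0.12), 3.37 (SE 0.09) and 2.38 (SE 0.12). IAA29 was at 96.1, 99.8 and 91.4 CPM in leaf and 5.48, 4.77 and 5.05 CPM at the 3-week apex. The response factor ARF18 and the auxin carrier PILS5 were lower in leaf, with -1.85 (SE 0.09, adjusted p = 1.11e-11) and -1.63 (SE 0.18, adjusted p = 4.39e-07).

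The GASA genes encode small peptides regulated by gibberellin. GASA1 had the largest fitted log2 fold change towards leaf of the named genes, 11.05 (SE 0.37, adjusted p = 1.16e-12), from 366, 329.9 and 209 CPM in leaf and 0.391, 0 and 0 CPM at the 3-week apex. Its apex counts all came from replicate 1. GASA6 was at 349, 336 and 290.0 CPM against 6.65, 4.36 and 5.72 CPM, with 5.86 (SE 0.16, adjusted p = 7.52e-15), and the 5-week apex read 0.709, 0.0667 and 0.0661 CPM. GASA14 was lower in leaf, with -1.55 (SE 0.10, adjusted p = 5.53e-10), and GASA4, among the highest named genes in CPM at the apex, was higher by 1.04 (SE 0.08, adjusted p = 8.67e-09). Under total counts the log2 fold change of GASA4 was 0.31.

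GA2OX2, which inactivates gibberellin, was at 3.2, 1.81 and 2.01 CPM in leaf and 16.5, 17.5 and 15.8 CPM at the 3-week apex, with -2.83 (SE 0.21, adjusted p = 2.24e-09). GA20OX2, which makes it, did not pass between these groups, at 3.87, 4.25 and 5.8 CPM and 4.44, 5.65 and 4.52 CPM, and lower at the 5-week apex, at 0.451, 0.334 and 0.661 CPM. For GA20OX2 the log2 fold change of leaf against 3-week apex was -0.07 (SE 0.22, adjusted p = 0.784). The cytokinin oxidase genes CKX5 and CKX3 were higher in leaf, with 2.87 (SE 0.12, adjusted p = 2.09e-12) and 2.52 (SE 0.34, adjusted p = 3.77e-06).

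ACS8 and ACS4 encode synthases of the ethylene precursor ACC. ACS8 was at 73, 68.2 and 64.4 CPM in leaf and 0.978, 0.953 and 0.798 CPM at the 3-week apex, with 6.22 (SE 0.16, adjusted p = 5.66e-15), and ACS4 at 27.7, 32 and 38.2 CPM against 0.522, 0.204 and 0.399 CPM, with 6.40 (SE 0.26, adjusted p = 8.16e-13). The receptor gene ERS2 was lower, with -1.66 (SE 0.09, adjusted p = 5.81e-11). Of the 11 ethylene genes, 2 were higher and 2 lower at 2-fold, or 2 and 5 under total counts. DOGT1, which glucosylates brassinosteroids, was higher in leaf, with 5.08 (SE 0.42, adjusted p = 1.12e-08), and BEE3, a brassinosteroid-induced factor, was lower, with -2.11 (SE 0.11, adjusted p = 3.21e-11). Of 6 brassinosteroid genes 2 were higher and 1 lower at 2-fold, or 1 and 2 under total counts.

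Of 10 light and shade genes 7 were higher in leaf at 2-fold and 1 lower, with a median log2 fold change of 2.57. Under total counts 6 were higher and 1 lower. PIL1, a factor induced within minutes by shade, was at 31.5, 33.7 and 14.8 CPM in leaf and 0.261, 0.0681 and 0 CPM at the 3-week apex, with 7.79 (SE 0.61, adjusted p = 5.08e-09). Leaf replicate 3 was the lowest leaf library for PIL1, and all leaf libraries lay above the apex. BBX17, STH and HFR1, a factor that restrains shade responses, had log2 fold changes of 5.13 (SE 0.17), 4.94 (SE 0.27) and 4.51 (SE 0.31). The blue light receptor gene PHOT1 was at 543, 529.8 and 506 CPM against 200.3, 234 and 195 CPM, with 1.33 (SE 0.11, adjusted p = 1.01e-08). PHOT1 no longer reached 2-fold under total counts. PKS4, which acts in phototropism, was the lower one, at 3.2, 3.5 and 5.47 CPM against 21.3, 17 and 20.6 CPM, with -2.28 (SE 0.18, adjusted p = 7.43e-09).

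Of the abscisic acid and dehydration genes, 6 of 12 were higher and 2 lower at 2-fold, or 5 and 2 under total counts. NCED3, the step that limits abscisic acid synthesis under drought, was at 17.3, 14.9 and 11.4 CPM in leaf and 1.24, 0.953 and 0.931 CPM at the apex, with 3.79 (SE 0.24, adjusted p = 3.64e-10). RAB18, a dehydrin, was at 56.4, 53.5 and 22.7 CPM against 1.24, 0.953 and 0.599 CPM, with 5.56 (SE 0.35, adjusted p = 3.12e-10), and LEA14 was higher by 3.85 (SE 0.29). The lower genes were DI21, with -3.56 (SE 0.16, adjusted p = 3.50e-12), and NAC3, with -3.32 (SE 0.46, adjusted p = 5.52e-06).

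The jasmonate list had 6 of 10 members higher and 2 lower at 2-fold, and the salicylic acid and defence list 9 of 19 higher and 1 lower. Under total counts these were 4 and 2, and 6 and 2. Of the higher jasmonate genes, AOC2 and LOX4 failed without leaf replicate 1, without leaf replicate 2 and under total counts. AOC2 also failed without apex replicate 2 and without apex replicate 3, and LOX4 with DESeq2. LOX2, the chloroplast lipoxygenase that starts jasmonate synthesis, was at 2089, 2055 and 2027 CPM in leaf and 106, 116 and 184 CPM at the 3-week apex, with 3.93 (SE 0.29, adjusted p = 2.23e-09). The 5-week apex read only 1.33 to 9.84 CPM of LOX2. OPR1, of the 12-oxophytodienoate reductase family, and CYP94B1, which hydroxylates the active hormone, had log2 fold changes of 4.22 (SE 0.20) and 3.38 (SE 0.40). AOC3, an allene oxide cyclase, went the other way, at 8.73, 8.39 and 7.81 CPM in leaf against 61.7, 66.5 and 56.4 CPM, with -2.89 (SE 0.11, adjusted p = 6.06e-13). JAZ1, a repressor of jasmonate responses, was lower as well, at 12.4, 10.7 and 6.7 CPM against 49.2, 52.7 and 49.5 CPM, with -2.34 (SE 0.23, adjusted p = 7.18e-08).

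Of the salicylic acid and defence genes, SYP122, a syntaxin, was at 6.63, 6.69 and 5.47 CPM in leaf and 0.261, 0.272 and 0.399 CPM at the apex, with 4.29 (SE 0.33, adjusted p = 3.74e-09). CBP60G and SARD1, factors that turn on salicylic acid synthesis, had log2 fold changes of 3.55 (SE 0.28) and 2.96 (SE 0.38), and the resistance gene RPM1 one of 3.14 (SE 0.30). PUB22, a ubiquitin ligase that dampens immune responses, was the lower one, with -2.09 (SE 0.44, adjusted p = 4.12e-04). WRKY25 was the WRKY factor with the largest difference, at 34.5, 31.2 and 17.6 CPM against 2.48, 3.06 and 1.46 CPM, with 3.57 (SE 0.27, adjusted p = 3.64e-09). Of 6 WRKY genes 3 were higher at 2-fold, or 2 under total counts.

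Glucosinolates are the sulphur-rich defence compounds of the cabbage family, and myrosinases cleave them when tissue is damaged. Of 13 named genes 8 were higher and 2 lower in leaf at 2-fold, with a median log2 fold change of 2.11. Under total counts 7 were higher and 2 lower. The myrosinase gene TGG2 (gene Aa_G113000) was at 2278, 2155 and 2269 CPM in leaf and 31, 20.0 and 24.4 CPM at the 3-week apex, with 6.47 (SE 0.16, adjusted p = 3.07e-15). BCAT4 and CYP79F1 stand at the start of side chain elongation and of core synthesis from methionine. BCAT4 was at 78.6, 81.2 and 68 CPM against 3.2, 0.34 and 0.399 CPM, with 5.83 (SE 0.32, adjusted p = 4.64e-11), and CYP79F1 at 109, 118 and 127 CPM against 7.37, 1.23 and 1.53 CPM, with 5.11 (SE 0.30, adjusted p = 1.41e-10). For both, apex replicate 1 was several times above the other apex libraries and below every leaf library.

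IPMI2, an isomerase of the elongation cycle, and MYB51, a regulator of the indole branch, were higher by 4.24 (SE 0.27) and 3.38 (SE 0.22). The genes lower in leaf were NSP1, a nitrile specifier protein, at 2.43, 2.23 and 1.56 CPM against 9.72, 9.53 and 12.2 CPM with -2.33 (SE 0.22, adjusted p = 6.07e-08), and CYP83B1, of the indole branch, with -1.11 (SE 0.11, adjusted p = 1.28e-07). Without leaf replicate 3 CYP83B1 no longer reached 2-fold. The sulphur genes were mixed, 3 of 6 higher and 2 lower at 2-fold, or 1 and 2 under total counts. APR2, which reduces activated sulphate, was higher by 1.26 (SE 0.14), an amount under 2-fold by total counts (0.54). SULTR4;2, which releases sulphate from the vacuole, was lower, at 3.76, 3.82 and 3.57 CPM in leaf against 12.3, 14.3 and 14.1 CPM, with -1.86 (SE 0.18, adjusted p = 6.37e-08).

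Of 12 genes on the iron and copper list, 8 were higher in leaf and 0 lower at 2-fold, or 6 and 1 under total counts. The vacuolar iron transporter VIT1, described above as lower in leaf, stands on the transporter list and is not among them, and CSD1 was lower past 2-fold under total counts, at -1.43. NAS3 makes nicotianamine, which carries iron, and was at 18.4, 21.5 and 18.3 CPM in leaf and 0.522, 0.136 and 0 CPM at the 3-week apex, with 6.39 (SE 0.36, adjusted p = 8.12e-11). COPT2, a copper carrier, was at 26.6, 27.1 and 13.6 CPM against 0.522, 0.204 and 0.399 CPM, with 5.86 (SE 0.39, adjusted p = 6.51e-10). FER1, a ferritin, was at 600.5, 582 and 685 CPM against 48.1, 59.9 and 52.7 CPM, with 3.54 (SE 0.10, adjusted p = 1.82e-14). The chloroplast ferric reductase gene FRO7 was higher by 4.67 (SE 0.45). CSD1, a copper and zinc superoxide dismutase, had a log2 fold change of -0.70 (SE 0.08, adjusted p = 4.72e-07), and BTS, a ubiquitin ligase of iron signalling, did not pass, with -0.07 (SE 0.07, adjusted p = 0.333).

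Cell wall genes went in both directions, 10 of 20 higher and 4 lower in leaf at 2-fold, or 7 and 5 under total counts. PME17, of the pectin methylesterase family, had the largest log2 fold change of the list, 3.77 (SE 0.52, adjusted p = 1.10e-05), at 1.99, 1.59 and 1.34 CPM in leaf and 0.0652, 0.136 and 0.133 CPM at the 3-week apex. The expansin gene EXPA16, outside the list, was at 24.9, 20.2 and 25.2 CPM in leaf and 0.326, 0 and 0.333 CPM at the 3-week apex, with 6.66 (SE 0.32, adjusted p = 8.38e-11), and EXPA8 at 307, 312 and 278 CPM against 44.2, 44.2 and 38.3 CPM, with 2.82 (SE 0.08, adjusted p = 8.18e-15). The related gene EXP3 was lower in leaf, at 41.3, 42.4 and 46.7 CPM against 146, 157 and 167 CPM, with -1.85 (SE 0.08, adjusted p = 1.26e-12). Xyloglucan endotransglucosylases split likewise, XTH33 and XTH30 being higher by 3.29 (SE 0.21) and 2.94 (SE 0.13), and XTH15 lower, with -2.74 (SE 0.25, adjusted p = 3.23e-08). PME5, a pectin methylesterase, was lower, with -2.33 (SE 0.17, adjusted p = 1.82e-09). The laccase genes IRX12 and LAC17, which polymerise lignin in xylem, were higher, with 1.88 (SE 0.18, adjusted p = 6.20e-08) and 1.47 (SE 0.25, adjusted p = 5.19e-05), and leaf replicate 3 was their highest leaf library. LAC17 no longer reached 2-fold under total counts.

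Of 6 phloem genes 4 were higher and 1 lower at 2-fold, or 3 and 1 under total counts. PP2-A5, of the phloem protein 2 family, was at 9.28, 6.58 and 5.58 CPM in leaf and 0.0652, 0 and 0.266 CPM at the apex, with 5.89 (SE 0.48, adjusted p = 9.22e-09). SMXL5, which acts when phloem forms, was lower in leaf, at 9.61, 11.4 and 15 CPM against 80.8, 92.3 and 75.7 CPM, with -2.79 (SE 0.13, adjusted p = 7.43e-12). Of 8 genes of nitrogen and amino acid transport, 3 were higher and 3 lower, or 1 and 4 under total counts. NIA1, a nitrate reductase, was at 328, 329 and 385 CPM in leaf and 83.3, 33.5 and 40.4 CPM at the apex, with 2.73 (SE 0.22, adjusted p = 8.47e-09). The amino acid permease gene AAP3 and GDU4, which raises glutamine export, were lower, with -2.71 (SE 0.28, adjusted p = 1.69e-07) and -2.39 (SE 0.34, adjusted p = 7.38e-06).

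Among 51 membrane transporter genes, a list made after earlier results were seen, 29 were higher and 9 lower in leaf at 2-fold, and 22 and 12 under total counts. OPT1, an oligopeptide transporter, was at 41, 41.9 and 30.7 CPM in leaf and 0.457, 0 and 0.0665 CPM at the 3-week apex, with 7.66 (SE 0.33, adjusted p = 1.86e-12). ZIP10, of the zinc and iron carrier family, read 12.7, 11 and 2.34 CPM in leaf and had 3 counts over the apex libraries. The ratio was 131 (95% counting interval 44.4 to 642). Leaf libraries of ZIP10 spread by over 4-fold, with replicate 3 the lowest, and the interval does not cover that spread. CNGC3, a cyclic nucleotide-gated channel, and MTP8, which moves manganese into the vacuole, were higher by 4.72 (SE 0.19) and 4.31 (SE 0.19). CAX1, a vacuolar calcium exchanger, was at 1078, 1067 and 1044 CPM against 179, 162 and 211 CPM, with 2.53 (SE 0.11, adjusted p = 1.41e-12). The 9 lower ones included VIT1, described above, OCT4, with -3.30 (SE 0.43), and SULTR3;4, with -2.79 (SE 0.14). Also among them were PHO1;H1, a phosphate exporter, with -2.16 (SE 0.17, adjusted p = 5.07e-09), and the aquaporin gene DELTA-TIP, with -1.87 (SE 0.12, adjusted p = 3.76e-10).

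Receptors and kinases, also listed late, numbered 17 higher and 3 lower of 34, or 14 and 8 under total counts. LECRK-VI.3, a lectin receptor kinase, was at 10.3, 10.6 and 9.6 CPM in leaf and 0.522, 0.953 and 1.2 CPM at the apex, with 3.50 (SE 0.28, adjusted p = 8.15e-09). PR5K, a receptor kinase with a thaumatin-like domain, had a log2 fold change of 3.48 (SE 0.25). LECRK-VII.2, of the same lectin class, was lower, at 0.552, 1.17 and 0.893 CPM against 7.11, 7.69 and 6.85 CPM, with -3.03 (SE 0.25, adjusted p = 1.26e-08). STY46, which phosphorylates chloroplast precursor proteins, was at 171, 172 and 153 CPM at the 3-week apex, 56.1, 57.3 and 70.5 CPM in leaf and 47.3, 39.5 and 45.7 CPM at the 5-week apex, so that leaf lay between the apex ages.

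Of 9 heat shock and touch genes 5 were higher in leaf at 2-fold and 0 lower, led by the factors ERF104 and ZAT6, with 2.67 (SE 0.28, adjusted p = 1.86e-07) and 2.64 (SE 0.39, adjusted p = 1.15e-05). Under total counts 3 were higher and 1 lower. None of 3 flavonoid genes reached 2-fold. Of 5 leaf polarity and TCP genes, 1 was higher, OFP16 with 3.33 (SE 0.11, adjusted p = 1.15e-13), and 1 lower, or 1 and 3 under total counts.

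The remaining genes of the naming rule were higher in leaf. GER3, a germin-like protein, was at 1825, 1764 and 2606 CPM in leaf and 336, 285 and 320.3 CPM at the 3-week apex, with 2.72 (SE 0.13, adjusted p = 1.05e-11). SAQR read 15, 19 and 15.3 CPM in leaf and had 2 counts over the 3-week apex libraries, a ratio of 371 (95% counting interval 102 to 3075). RNS1, a secreted ribonuclease, was at 14.1, 14.4 and 3.57 CPM against 1.3, 0.545 and 0.532 CPM, with 3.73 (SE 0.46, adjusted p = 1.55e-06), and leaf replicate 3 was again the lowest leaf library.

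**Figure D5:**
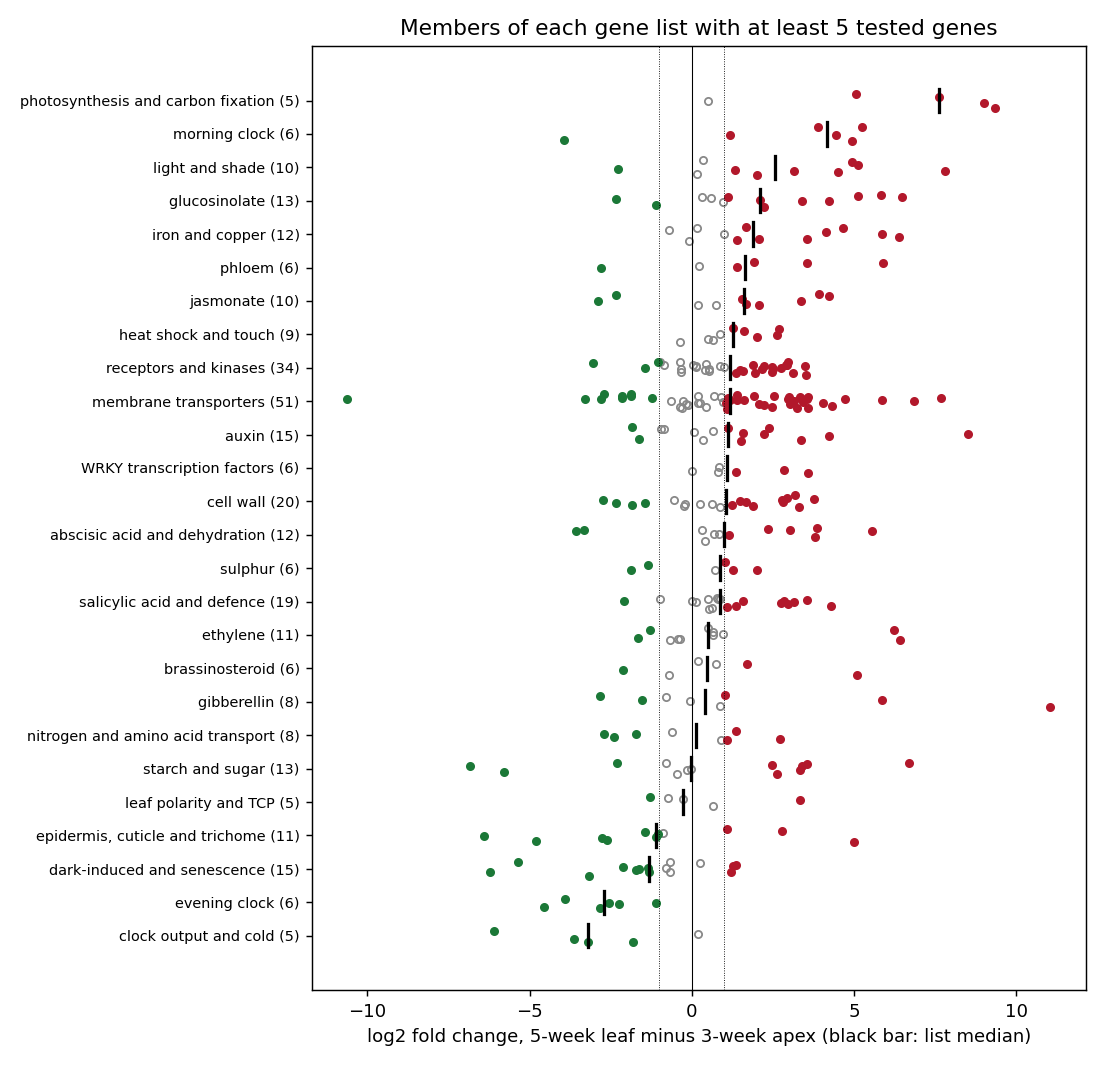
Log2 fold change of 5-week leaf over 3-week apex (horizontal axis) for each tested member of the gene lists with at least 5 tested genes (rows, with the number tested). Filled points passed at 2-fold, open points did not, black bars are list medians, and dotted lines mark 2-fold; the photosynthesis and morning clock lists have the highest medians, 7.60 and 4.17, and the evening clock and clock output lists the lowest, -2.69 and -3.20.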

How the data were processed

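Gene counts of 9 mutant libraries were analysed. The integer counts per gene entry were deposited by the authors and are not normalized. STAR, DESeq, DESeq2 and HTSeq 0.5.4p1 appear, without roles, per the submitters' processing notes. No source used here names the genome build or annotation. Per the labels' protocols, polyadenylated RNA went into strand-directional libraries read as single reads of 100 bases. The log2 fold changes in the authors' deposited up and down lists were not used as values. Those lists served for Arabidopsis names alone (671 of 1487 listed IDs carry one) and to say that named genes were picked partly on these libraries.

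Rows for reads without a gene (10.7% to 19.2% of all reads) were left out. The test was that of edgeR 4.0.16 (R 4.3.3): TMM scaling, its expression filter, 1 model of 3 groups over 9 libraries, quasi-likelihood F-test, Benjamini-Hochberg adjustment over 20633 genes, thresholds of 0.05 and 2-fold. SEs were derived from the F statistic, as the size of the log2 fold change divided by its square root. Groups with no count got a bound of 3 counts over the group, and groups with 1 to 3 counts an exact binomial interval, both of counting error only. Chi-square per degree of freedom between libraries of a group was 1.66 to 10.7, so none counted as 1 library deposited again. The common biological coefficient of variation was 0.0768. The fit was first tested on simulated data with 200 of 19896 genes changed. It recovered 65.7%, 80.6% and 100% of genes changed by 1.5-, 2- and 4-fold, and 18 of 182 calls were false. In the leaf and 3-week apex comparison 15451 genes were called, and scaling with that many differences was not tested.

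Named genes were the 15 of largest fold each way (called, mean log2 CPM of at least 2, groups not overlapping, 1 entry per ID). The 5 with the highest CPM per group, those spreading over 4-fold and members of gene lists were named as well. List members with larger differences were preferred, but not always. CAX1, PHO1;H1, DELTA-TIP, PHOT1 and FER1, among others, were named although unnamed members of their lists differed by more. Such picks count as made after their values were seen. A list was described by its counts and median, with no set test. Members and lists were chosen with earlier results of these data known, and 3 lists (receptors and kinases, membrane transporters, zinc finger homeodomain) were added after that. Other settings were RLE scaling, total counts, no filter, the 6 libraries alone, a replicate block, summed entries, omission of each library, limma 3.58.1 with voom and DESeq2 1.42.0. Python 3.11.15 and matplotlib 3.10.9 made tables and figures. No sequences are printed, because no reference was used here.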

Additional observations from a re-analysis of the deposited data

How the results depend on the processing

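Scaling by total counts alone left 3991 genes higher and 13538 lower in leaf at an adjusted p under 0.05, and 2437 higher and 8259 lower at 2-fold. The cause was not tested. In every other setting run (RLE scaling, no filter, the 6 libraries alone, summed entries, limma with voom, DESeq2, the replicate block and each omitted library) these counts stayed within 1.5 times. Leaving out each library in turn gave 14781 to 15223 genes called by adjusted p (7243 to 7435 higher, 7538 to 7788 lower) and 8024 to 8349 at 2-fold (4109 to 4255 higher, 3908 to 4134 lower). With the replicate block 15242 genes were called by adjusted p and 8065 at 2-fold. Same-numbered leaf and apex libraries did not deviate together (r = -0.004, -0.02 and -0.03), and unlike-numbered ones gave r of -0.02 to 0.04. Whether same-numbered libraries shared a harvest or preparation was not tested. Of the named genes PORA reversed under total counts, to -0.23. ARR15, BRC1, BTS, GA20OX2, TEM1, TPS9 and TPS11 passed only with other settings, among them total counts, and LHY failed there at 0.44. BRC1 also passed without leaf replicate 2, at -1.46, and TPS9 in the 6 libraries alone, at -0.15. The labels record no batch, so none was tested. Genes near the floor of 3 counts over a group, 0.109 CPM in leaf and 0.0666 CPM at the 3-week apex, were detectable or not by depth.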
